A study of Mus musculus with 10 samples.

Results

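The genes described here are 33 genes of sterol and fatty acid synthesis that are known targets or parts of the SREBP system, taken by symbol from a fixed list. All 33 were found among the 17983 genes of the deposited files, and all 33 were listed in all 10 libraries and passed the filter on low values. They fall into a sterol arm of 19 genes, a fatty acid arm of 10 genes and 4 regulators. RNA was sequenced from keratinocytes freed from the back skin epidermis of mice with dispase and trypsin. Knockout mice carried Gsdma1KO/KO;Gsdma3fx/fx;K14-Cre, a label that gives Gsdma1 as knocked out and Gsdma3 as floxed, to be deleted where the K14 promoter drives Cre, in keratinocytes of the epidermis and its appendages. Wild type mice were the controls. The skin of both genotypes was rubbed for 3 days, 2 times a day, with either a mix of 4 parts acetone and 1 part olive oil (oil/acetone) or water, and samples are labelled day 5. There were 3 knockout libraries under oil/acetone, 2 knockout libraries under water, 3 control libraries under oil/acetone and 2 control libraries under water. The labels do not tie each library to an animal of its own, so every p-value here measures the spread between libraries, and that spread may be technical.

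Cells make cholesterol from acetyl-CoA through the mevalonate pathway, and fatty acids from acetyl-CoA through ATP citrate lyase, acetyl-CoA carboxylase and fatty acid synthase, followed by elongases and desaturases. SREBP2 (Srebf2) is known mainly as the activator of the sterol genes and SREBP1 (Srebf1) mainly as that of the fatty acid genes. INSIG proteins hold the SREBP precursors in the endoplasmic reticulum while sterols are plentiful. In the epidermis both pathways feed the lipid layers of the barrier, and sebaceous glands use them for sebum.

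The promoter stretches below show the letters through which SREBPs are known to work in this gene family, and Ebp is added, after its values were seen, as the only gene of the 33 that passed the limma test in any comparison. RefSeq promoter windows of GRCm38.p6, from 250 bases before to 50 bases after the annotated start, were found for 28 of the 33 genes. The sterol element letters TCACNCCA, searched on both strands, were found for 3 of these 28 genes (Hmgcs1, Msmo1 and Srebf2) and in 4.36% of all 32851 windows. A gene counted if any of its windows matched, whereas the shares over all windows count single windows, so the 2 units differ. The NF-Y letters CCAAT, searched on both strands, were found for 14 of 15 sterol genes, 5 of 9 fatty acid genes and 4 of 4 regulators, against 37.4% of all windows. Capitals mark TCACNCCA and CCAAT matches on either strand, so that ATTGG is CCAAT read from the other strand. Sequences run 5′ to 3′ in the direction of transcription. For Msmo1 the stretch overlapped a GENCODE exon, so only the element and its flanks are shown. These Msmo1 bases lie before the RefSeq start but inside the gene as GENCODE bounds it (64718139 to 64733792).
Hmgcs1, chr13:119690101-119690325, plus strand, GRCm38.p6: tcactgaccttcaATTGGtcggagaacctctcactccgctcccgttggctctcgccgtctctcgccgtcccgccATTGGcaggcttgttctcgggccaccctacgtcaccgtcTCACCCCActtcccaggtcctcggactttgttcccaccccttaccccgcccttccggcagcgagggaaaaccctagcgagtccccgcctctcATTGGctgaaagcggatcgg
Msmo1, chr8:64733737-64733766, minus strand, GRCm38.p6: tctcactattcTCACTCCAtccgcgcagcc
Srebf2, chr15:82147092-82147153, plus strand, GRCm38.p6: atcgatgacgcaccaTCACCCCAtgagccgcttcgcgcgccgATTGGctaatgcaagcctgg
Ebp, chrX:8193548-8193697, minus strand, GRCm38.p6: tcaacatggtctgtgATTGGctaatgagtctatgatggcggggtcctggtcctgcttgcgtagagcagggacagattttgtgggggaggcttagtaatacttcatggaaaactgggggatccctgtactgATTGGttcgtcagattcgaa
The Hmgcs1 stretch holds 1 sterol element and 3 NF-Y matches, the Srebf2 stretch holds 1 of each, and the Ebp stretch holds 2 NF-Y matches and no TCACNCCA. Of the other letters searched, the GC box GGGCGG was found for 22 of 28 genes and in 35.7% of all windows. The E-box CACGTG was found for 5 of 28 (Dhcr7, Elovl5, Hsd17b7, Insig1 and Sc5d) and in 7.15% of all windows. These matches describe the windows and are not measured binding.

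The libraries held 15914663 to 21812292 reads, recovered from the deposited values. Gsdma3 had 0 to 2.62 normalised counts in the 5 knockout libraries and 61.8 to 280 in the 5 control libraries, with no overlap. Gsdma, the symbol of Gsdma1 in the annotation, had 169 to 835 normalised counts in the knockout libraries and 198 to 724 in the control libraries, which overlap. Which of its exons were deleted is not given in the sources used here, so this gene does not check the labels. All 10 keratinocyte markers were above 0 in every library. The 4 Y-linked genes on the marker list summed to 3547 to 4917 in the 6 oil/acetone libraries and were at 0 in the 4 water libraries. Treatment and the presence of Y-linked transcripts therefore cannot be told apart in any comparison of oil/acetone with water below, and Ebp and Nsdhl lie on the X chromosome. Knockout oil/acetone library 2 stood apart in the lipid genes and in hair and sebaceous markers, as given with the results, and control water library 2 had the highest level of the hair list (a median of 4.06 above the gene means on the log2 scale, against -1.64 in control water library 1).

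Per kilobase of exon, the 33 genes spanned a wide range of expression in these keratinocytes. Hmgcs1, which makes HMG-CoA at the head of the mevalonate pathway, was highest at a mean of 1337 normalised counts per kilobase over the 10 libraries (925 to 1976). Acly, the lyase that makes cytosolic acetyl-CoA, followed at 892 (743 to 1224), and Srebf2 at 745 (673 to 845), so that neighbours in this order overlapped in their ranges. The lowest were Fdps, the farnesyl diphosphate synthase, at 30.5 (19.2 to 48.7), with 26.7% of its exon bases shared with Gm43738 on the same strand, and Acss2, an acetyl-CoA synthetase, at 25.7 (16.5 to 34.0). Exon lengths were the union of all annotated transcripts, which lowers the value of genes with long rare isoforms. Srebf2 was the steadiest of the 33, at 4837 to 6073 normalised counts over the 10 libraries, while Elovl5, an elongase of polyunsaturated fatty acids, was the least steady, its highest library 4.70 times its lowest (606 to 2844).

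**Figure D1:**
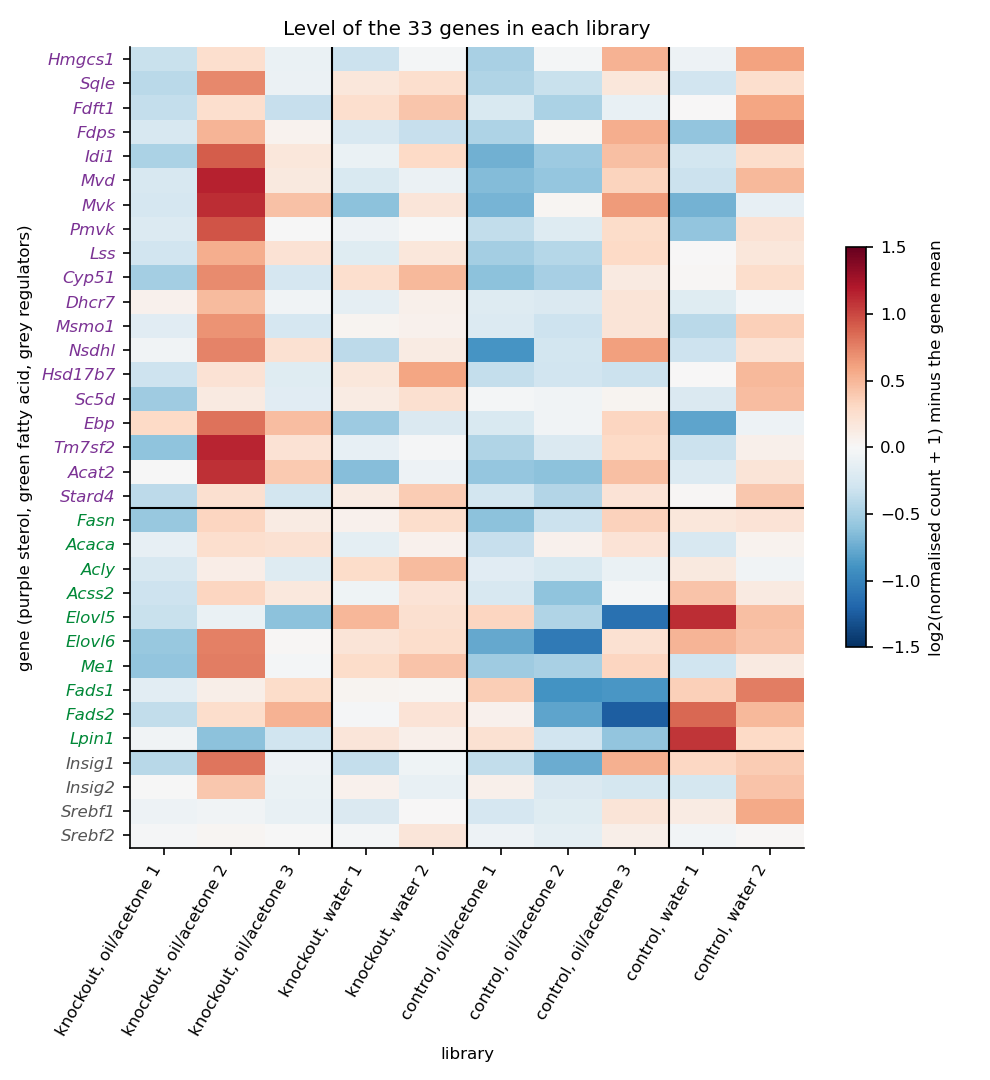
Heat map of the 33 genes (rows, sterol arm on top, then fatty acid arm, then regulators) in the 10 libraries (columns), coloured by log2(normalised count + 1) minus the gene's mean over the libraries. Knockout oil/acetone library 2 is the highest library for 13 of the 19 sterol genes, and Fads2, Elovl5 and Lpin1 are highest in control water library 1.

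In knockout skin, limma called 1 of the 33 genes for oil/acetone against water. Ebp, the sterol isomerase that acts late in cholesterol synthesis (chromosome X, 8185329 to 8193512, minus strand, GRCm38), had 839, 1208 and 939 normalised counts in the knockout oil/acetone libraries, against 469 and 589 in the knockout water libraries. Every oil/acetone library was above both water libraries. The log2 difference was 0.90 ± 0.26 (SE), with a limma adjusted p of 0.0443 over all 15958 genes tested. The whole transcriptome moved widely in this comparison: 13.4% of all genes were called, 6.74% as higher. The 1 of 33 is below both shares. The edgeR test on recovered reads called Ebp (adjusted p = 0.0474) and 12.1% of all genes, and DESeq2 called Ebp (adjusted p = 0.0124) and Acly, where it called 22.6% of all genes. The Ebp call rested on few libraries: it was lost without knockout oil/acetone library 2 (adjusted p = 0.131) or 3 (adjusted p = 0.102), without knockout water library 1 (adjusted p = 0.261) or 2 (adjusted p = 0.16), and without control oil/acetone library 2 (adjusted p = 0.0726), while its log2 difference stayed between 0.74 and 1.07.

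Other genes of the sterol arm in knockout skin lay mostly a little higher under oil/acetone, without passing the test. Acat2, the cytosolic thiolase that makes acetoacetyl-CoA, had 367, 790 and 484 normalised counts under oil/acetone, against 237 and 350 under water, a log2 difference of 0.85 (95% interval -0.0026 to 1.70, limma adjusted p = 0.144). Mvk, the mevalonate kinase, had 460, 1178 and 746 under oil/acetone, against 359 and 621 under water, a log2 difference of 0.65. The 2 sets of Acat2 libraries did not overlap, while those of Mvk did. Of the 19 sterol genes, 13 had a positive and 6 a negative log2 difference, with a median of 0.16 (0.01 over all genes tested). That median was -0.06 without knockout oil/acetone library 2, 0.02 without knockout water library 1, 0.38 without knockout oil/acetone library 1 and 0.30 without knockout water library 2. The negative ones included the squalene synthase Fdft1 (-0.48), the ketosteroid reductase Hsd17b7 (-0.47) and the lanosterol demethylase Cyp51 (-0.39).

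In the fatty acid arm of knockout skin no gene passed the limma test, and most differences were negative. Acly had 3923, 4977 and 4049 normalised counts under oil/acetone, against 5608 and 6462 under water, with no overlap. Its log2 difference was -0.49 ± 0.15 (SE) with a limma adjusted p of 0.0557, and DESeq2 called it (adjusted p = 0.0273). Elovl5 had 1039, 1230 and 857 under oil/acetone, against 1854 and 1546 under water, again with no overlap and a log2 difference of -0.72 ± 0.36 (SE, limma adjusted p = 0.179). In a limma fit of the knockout groups alone, which called 24.9% of the genes it tested, Elovl5 was called (adjusted p = 0.0273). Of the 10 fatty acid genes, 7 had a negative log2 difference, with a median of -0.18. Without knockout oil/acetone library 1 the median was 0.10 and 7 of the 10 were positive, without knockout oil/acetone library 2 it was -0.35, without knockout water library 2 it was -0.11, and with libraries scaled to equal totals the median was -0.059. Over all 33 genes, the oil/acetone libraries lay wholly above the water libraries for 3 (Ebp, Fdps and Acat2) and wholly below for 4 (Fdft1, Acly, Elovl5 and Lpin1), whereas 28.8% of all genes lay wholly above and 29.2% wholly below. For Fdps the gap was very narrow, from 103.03 normalised counts in the highest water library to 103.46 in the lowest oil/acetone library.

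Among the regulators in knockout skin, Insig1, itself a known SREBP target, had 481, 1120 and 609 normalised counts under oil/acetone, against 502 and 613 under water. The groups overlapped, and the log2 difference of 0.31 became -0.03 without knockout oil/acetone library 2. Srebf2 had 5284, 5445 and 5304 under oil/acetone, against 5233 and 6073 under water, a log2 difference of -0.08 (95% interval -0.38 to 0.22). That small difference turned to 0.05 when libraries were scaled to equal totals.

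Several marker lists moved with the treatment in knockout skin. The 13 sebocyte markers tested, of 15 listed, summed to 55947 to 138452 normalised counts under oil/acetone, against 31307 to 33856 under water, mostly from Krt79 and Fabp5. The 12 proliferation genes summed to 16602 to 20552 under oil/acetone, against 6388 to 7728 under water. The 5 erythroid genes summed to 14263 to 27272 under oil/acetone, against 1164 to 2518 under water. No gene of these lists was at 0 in any library. Their part in the differences above was not tested, and in bulk RNA fewer cells of a type and less RNA per cell cannot be told apart.

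In control skin, oil/acetone against water gave no call among the 33 genes by limma, edgeR or DESeq2, where limma called 0.0627%, edgeR 0.0439% and DESeq2 2.21% of all genes. At an unadjusted p under 0.05, 9 of the 33 were lower and none was higher, against 7.94% of all genes lower. The 9 were 6 of the 10 fatty acid genes, 2 of the 19 sterol genes and Srebf1. The median log2 difference was -0.74 over the fatty acid arm and -0.19 over the sterol arm, against 0.00 over all genes tested. The sterol median depended on single libraries: it was 0.08, with 13 of 19 positive, without control water library 2, -0.05 and -0.11 without control oil/acetone libraries 1 and 2, -0.47 without control water library 1 and -0.52 without control oil/acetone library 3. The fatty acid median was -0.47 without control water library 1 and between -0.77 and -0.58 without any other control library.

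**Figure D2:**
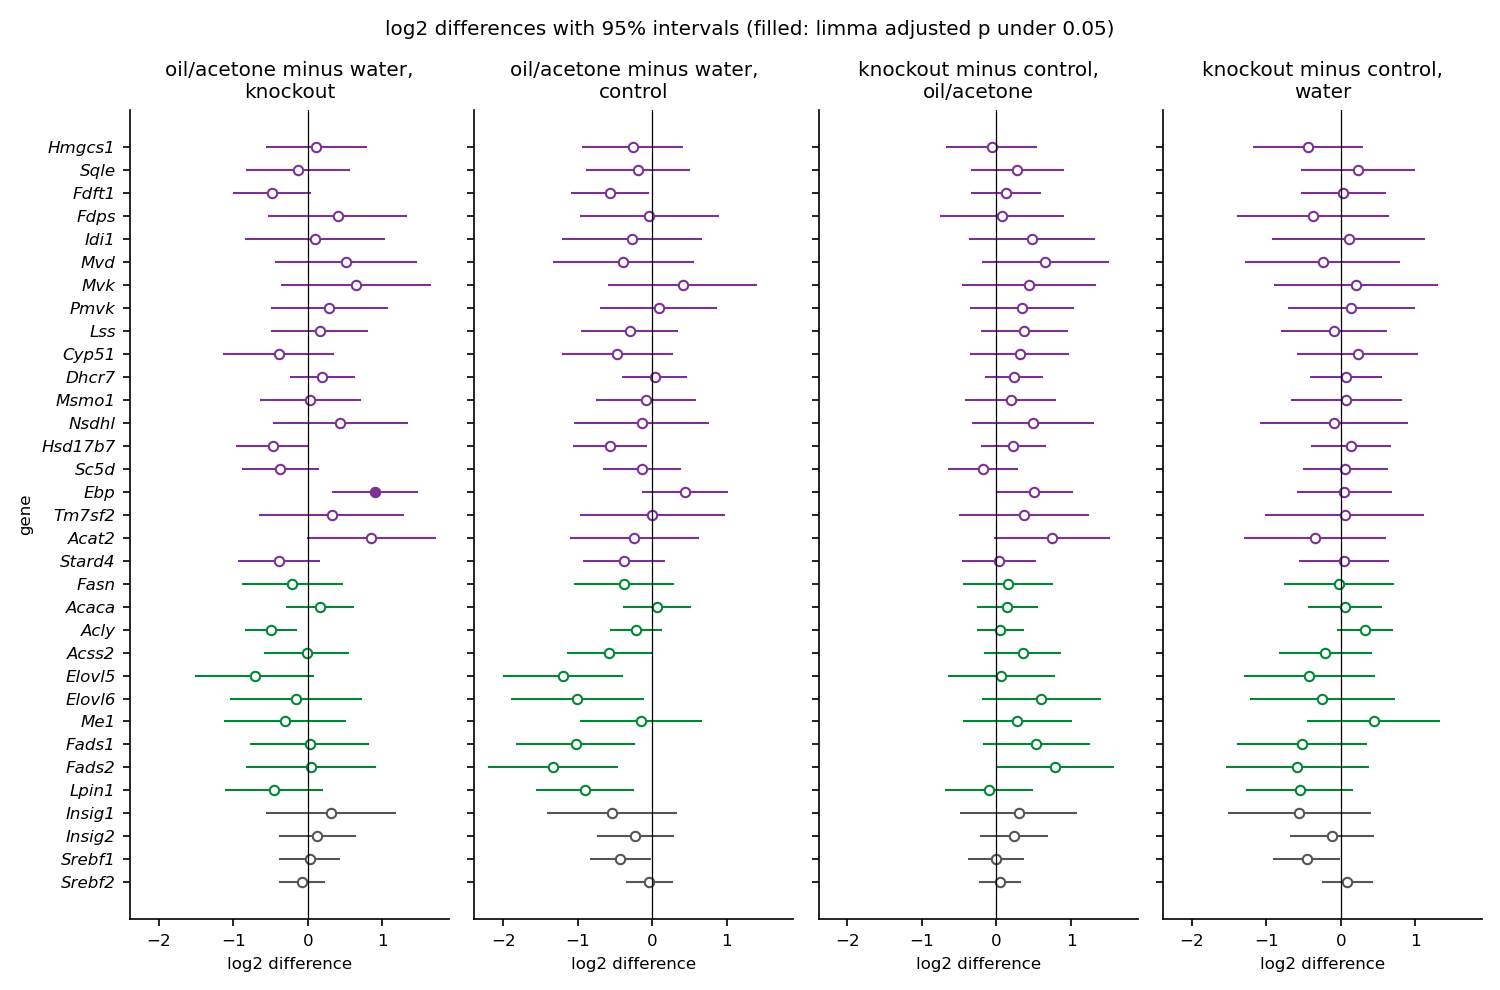
log2 differences (points) with 95% intervals (lines) from limma for each of the 33 genes in 4 comparisons, oil/acetone minus water or knockout minus control, with purple for sterol, green for fatty acid and grey for regulator genes and filled points for adjusted p under 0.05. Ebp in knockout skin (0.90) is the 1 filled point. In control skin the intervals of 9 genes lie below 0: 6 fatty acid genes, the sterol genes Fdft1 and Hsd17b7, and Srebf1. The fatty acid genes include Elovl5, Elovl6, Fads1, Fads2 and Lpin1.

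The largest differences in control skin, none past the test, were in genes that elongate or desaturate fatty acids, a grouping made after the values were seen. Fads2, the delta-6 desaturase (chromosome 19, 10062765 to 10101746, minus strand), had 113, 62.5 and 45.7 normalised counts under oil/acetone, against 199 and 152 under water. The groups did not overlap, and the log2 difference was -1.33 ± 0.39 (SE, limma adjusted p = 0.237). Fads1, the delta-5 desaturase that neighbours Fads2 on chromosome 19 (10182888 to 10196877, plus strand), had 285, 117 and 120 under oil/acetone, against 282 and 375 under water, a log2 difference of -1.03 (limma adjusted p = 0.284). Here control oil/acetone library 1 lay between the 2 water libraries and the other 2 oil/acetone libraries lay far below.

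Elovl5 (chromosome 9, 77917364 to 77984519, plus strand) had 1645, 958 and 606 normalised counts under oil/acetone, against 2844 and 1802 under water, a log2 difference of -1.20 ± 0.36 (SE, limma adjusted p = 0.242). Elovl6, which lengthens palmitate, had 1050, 861 and 2106 under oil/acetone, against 2555 and 2420 under water, a log2 difference with a 95% interval of -1.88 to -0.13 (limma adjusted p = 0.327). Lpin1, a phosphatidate phosphatase of glycerolipid synthesis, had 432, 304 and 245 under oil/acetone, against 776 and 454 under water, a log2 difference of -0.90 (limma adjusted p = 0.268). In all 3 genes each oil/acetone library was below both water libraries. Acss2 and Acly, which supply acetyl-CoA, also did not overlap. Acss2 was at 216, 167 and 250 under oil/acetone, against 345 and 280 under water. Acly was at 4125, 3979 and 4324 under oil/acetone, against 5142 and 4489 under water. The genes of the synthase steps gave smaller differences: Fasn, the fatty acid synthase, -0.38, Acaca, the acetyl-CoA carboxylase, 0.07, and Me1, the malic enzyme that supplies NADPH, -0.14.

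In Fads1, Fads2 and Elovl5, control oil/acetone library 1 lay closer to the water libraries than its 2 partners did. Without it, limma called Fads2 (adjusted p = 0.0361), Elovl5 (adjusted p = 0.0304) and Fads1 (adjusted p = 0.0231) as lower under oil/acetone, where it called 2.95% of all genes. With all libraries it called none of them, and 0.0627% of all genes. This library was singled out by the values of these same genes, so the calls without it are not separate support. The 11 lymphocyte markers, none of them at 0 in any library, had the same order of control libraries as Fads2 and Elovl5 within each treatment: they summed to 22305, 12643 and 8855 normalised counts in control oil/acetone libraries 1, 2 and 3, against 34054 and 22034 in the control water libraries. In knockout skin the list summed to 15334, 11799 and 18757 under oil/acetone, against 17838 and 16571 under water, an order that is the reverse of that of Elovl5 among the oil/acetone libraries and differs from that of Fads2 in both treatments. The 7 fibroblast markers, none at 0 in any library, had the same order of control libraries as the lymphocyte markers. They summed to 6095, 5121 and 4442 in control oil/acetone libraries 1, 2 and 3, against 10251 and 3023 in the control water libraries. In knockout skin they summed to 5392, 4409 and 2260 under oil/acetone, against 7435 and 4532 under water. The part of either kind of cell in the fatty acid genes was not tested.

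In the sterol arm of control skin, Fdft1 had 1540, 1301 and 1681 normalised counts under oil/acetone, against 1812 and 2732 under water, a log2 difference of -0.57 (95% interval -1.08 to -0.06, limma adjusted p = 0.34). Hsd17b7 had 471, 497 and 486 under oil/acetone, against 607 and 850 under water, a log2 difference of -0.57 (95% interval -1.05 to -0.09, limma adjusted p = 0.315). Neither overlapped between the groups. The other 17 sterol genes overlapped, with log2 differences from -0.47 (Cyp51) to 0.44 (Ebp). Of the reads for Fdft1, those from 18.3% of its exon bases could also come from Ctsb on the other strand, since the strand setting is not given in the sources used here.

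Among the regulators in control skin, Srebf1 had 2495, 2606 and 3395 normalised counts under oil/acetone, against 3231 and 4394 under water, overlapping, with a log2 difference of -0.43 (limma adjusted p = 0.361). Insig1 had 496, 383 and 929 under oil/acetone, against 798 and 835 under water, also overlapping, with a log2 difference of -0.54 (limma adjusted p = 0.581). Srebf2 had 5051, 4837 and 5661 under oil/acetone, against 5204 and 5410 under water, a log2 difference of -0.04 (95% interval -0.35 to 0.28). In all, 8 of the 33 genes lay wholly lower under oil/acetone in control skin, against 12% of all genes.

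The comparisons of treatment in the 2 genotypes share no library. Fdft1, Acly, Elovl5 and Lpin1 lay wholly lower under oil/acetone in both, which is 4 of the 33 genes (12.1%), against 4.79% of all genes tested. In knockout skin the gap was narrow for Fdft1, with 1413, 2153 and 1429 normalised counts under oil/acetone, against 2163 and 2411 under water, and for Lpin1, with 355, 241 and 301 under oil/acetone, against 420 and 390 under water. None of the 33 lay wholly higher in both, against 6.01% of all genes. Fads1 and Fads2 were not among the 4: in knockout skin Fads2 had 84.0, 131 and 156 normalised counts under oil/acetone, against 107 and 125 under water, a log2 difference of 0.04.

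**Figure D3:**
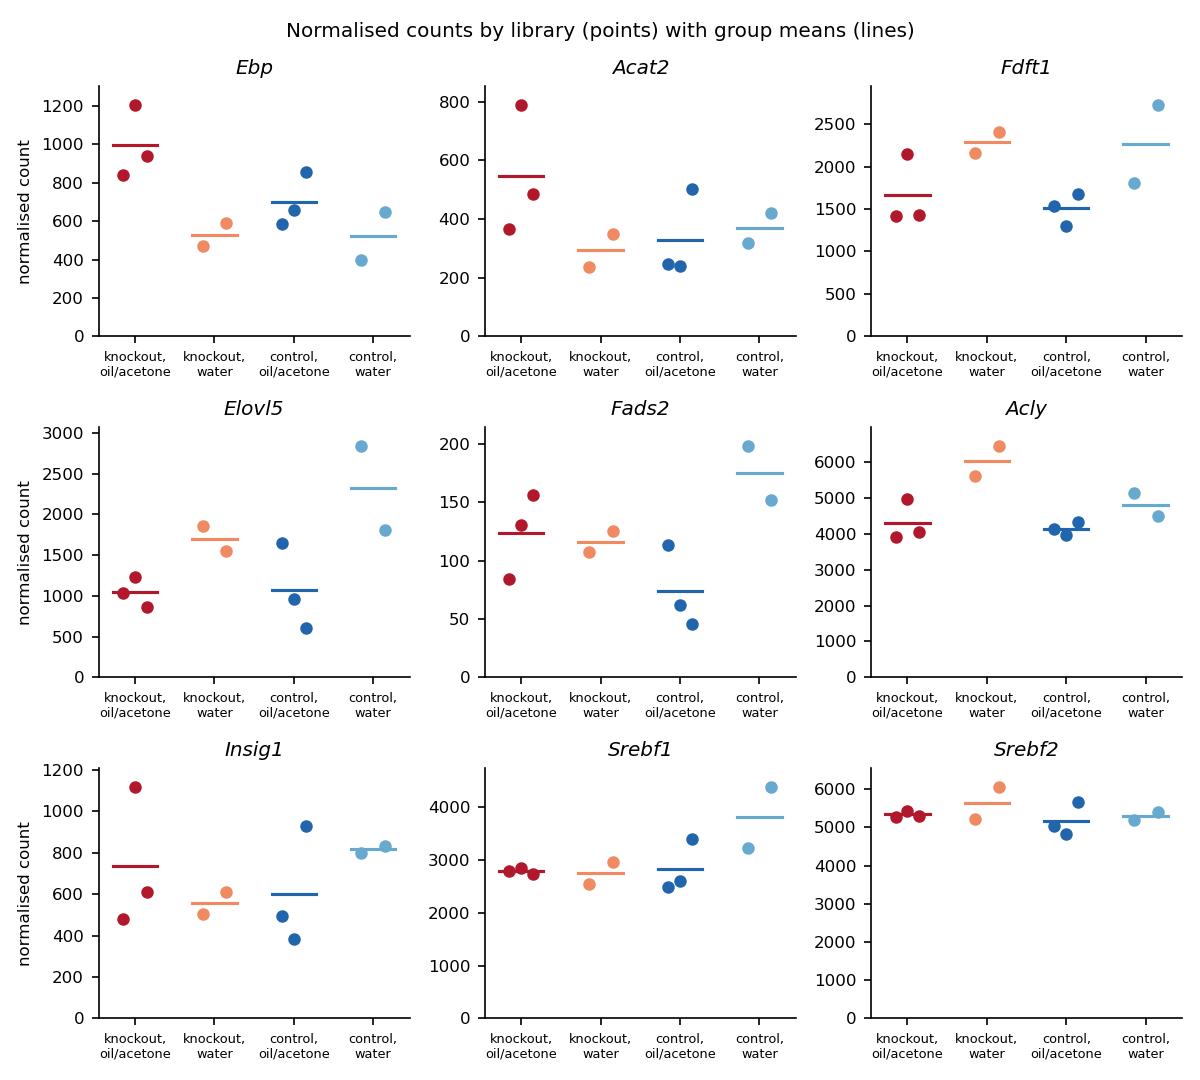
Normalised counts (vertical axes, from 0) of 9 of the genes in every library (points) with group means (lines), in the order knockout oil/acetone, knockout water, control oil/acetone, control water. Elovl5 is below both water libraries in each oil/acetone library of both genotypes, Fads2 is so in control skin alone, and Ebp is wholly higher under oil/acetone in knockout skin.

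Whether the response to oil/acetone differed with genotype was tested as an interaction. No gene of the 33 was called by limma, edgeR or DESeq2, where limma and edgeR called 0% and DESeq2 1.06% of all genes. At an unadjusted p under 0.05, 1 of the 33 (Fads2) had a positive interaction, against 6.15% of all genes. For Fads2 the difference between the 2 responses was 1.37 ± 0.55 (SE, log2, limma adjusted p = 0.398), and for Fads1 it was 1.05 ± 0.50 (limma adjusted p = 0.428). Acat2 gave 1.09 (95% interval -0.12 to 2.29) and Mvd, the decarboxylase that makes isopentenyl diphosphate, gave 0.90 (95% interval -0.42 to 2.22). Among regulators, Insig1 gave 0.85 (95% interval -0.36 to 2.07) and Srebf1 gave 0.45 (95% interval -0.11 to 1.02). The intervals are wide enough that a difference between genotypes of more than 2 log2 units was not excluded for Fads2, Acat2, Mvd or Insig1.

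Under oil/acetone, knockout against control gave no call among the 33 genes by limma, edgeR or DESeq2, where limma and edgeR called 0% and DESeq2 1.05% of all genes. The values leaned higher in knockout skin for 17 of 19 sterol genes and 9 of 10 fatty acid genes, with medians of 0.31 and 0.22 on the log2 scale, against 0.02 over all genes. At an unadjusted p under 0.05, 2 of the 33 were higher, against 5.47% of all genes. No gene of the 33 lay wholly higher in the knockout libraries, against 8.55% of all genes.

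The first of the 2 is Fads2, with 84.0, 131 and 156 normalised counts in knockout oil/acetone libraries, against 113, 62.5 and 45.7 in control oil/acetone libraries, a log2 difference of 0.79 (limma adjusted p = 0.41). Ebp had 839, 1208 and 939 in knockout libraries, against 585, 659 and 855 in control libraries, a log2 difference of 0.51 (limma adjusted p = 0.415). Both sets overlapped. Acat2 followed in the sterol arm, with 367, 790 and 484 in knockout libraries, against 246, 240 and 503 in control libraries (0.74, limma adjusted p = 0.422). Elovl6 had 1206, 3028 and 1820 in knockout libraries, against 1050, 861 and 2106 in control libraries (0.60, limma adjusted p = 0.514). The regulators with the lowest p were Insig2, the second INSIG protein, at 0.24, and Insig1 at 0.30, each with an interval that spans 0.

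The lean of the sterol arm towards knockout skin was lost without 1 library. Knockout oil/acetone library 2 was the highest of the 10 libraries for 13 of the 19 sterol genes, against 17.8% of all genes, and control oil/acetone library 1 was the lowest for 8 of them. Without knockout oil/acetone library 2 the sterol median was -0.01 and the fatty acid median 0.06. Without control oil/acetone library 1 the sterol median was 0.17, without control oil/acetone library 3 the medians were 0.53 and 0.38, and without knockout oil/acetone library 1 they were 0.56 and 0.48. Mvd had 218 to 431 normalised counts in the control oil/acetone libraries. In knockout oil/acetone library 2 it was at 763, against 290 and 379 in the other 2 knockout oil/acetone libraries. Tm7sf2, a sterol reductase whose exons share 12.1% of their bases with Vps51, was at 301, against 89.1 and 158 in the other 2 and 99.6 to 167 in the control oil/acetone libraries.

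Knockout oil/acetone library 2 was also highest in sebaceous markers. Its 13 sebocyte genes summed to 138452, against 55947 and 99020 in the other 2 knockout oil/acetone libraries and 34852 to 46389 in the control oil/acetone libraries. Awat1, a wax synthase of sebocytes, had 191 normalised counts there, against 28.7 and 34.6 in the other 2 and 8.52 to 29.4 in the control oil/acetone libraries. The 14 hair markers tested, of 18 listed, had a median of 2.59 above their gene means on the log2 scale in that library, against -0.26 and 1.09 in the other 2. Other lists had wholly higher sums in the knockout oil/acetone libraries than in the control oil/acetone libraries. The 10 Langerhans cell markers summed to 31049 to 52562 in knockout libraries, against 15455 to 21336 in control libraries, the 7 macrophage markers to 597 to 1115, against 346 to 437, and the 8 endothelial markers to 700 to 955, against 136 to 322. Single markers did not all follow the sums. Cd207 of the Langerhans list overlapped, at 1178, 1575 and 759 in knockout libraries, against 1184, 900 and 520 in control libraries. Epcam, Cd68 and Cldn5 overlapped too, and the other markers of these lists did not. No gene of these 3 lists was at 0 in these libraries. The part of any of these cells in the sterol and fatty acid values was not tested.

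Under water, knockout against control gave no call among the 33 genes by limma, edgeR or DESeq2, where limma and edgeR called 0% and DESeq2 0.0376% of all genes. At an unadjusted p under 0.05 1 of the 33 was lower, against 3.23% of all genes. This was Srebf1, with 2543 and 2969 normalised counts in knockout libraries, against 3231 and 4394 in control libraries, a log2 difference of -0.46 (95% interval -0.89 to -0.02, limma adjusted p = 0.964). Insig1 had 502 and 613 in knockout libraries, against 798 and 835 in control libraries (-0.56 ± 0.43, SE, log2). Acly had 5608 and 6462 in knockout libraries, against 5142 and 4489 in control libraries (0.33, 95% interval -0.04 to 0.69), and Lpin1 had 420 and 390 in knockout libraries, against 776 and 454 in control libraries (-0.55, 95% interval -1.26 to 0.16). None of these 4 overlapped. In the sterol arm all 19 genes overlapped, among them Hmgcs1, with 4773 and 5848 in knockout libraries, against 5660 and 9078 in control libraries (-0.44, 95% interval -1.17 to 0.29). In all, 6 of the 33 lay wholly lower and 2 wholly higher in knockout libraries, against 17.8% and 16.9% of all genes.

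Set side by side over the 4 groups, the arms did not keep a fixed distance. The level of an arm was taken in each library as the median over its genes of log2(normalised count + 1) minus the gene's mean over the 10 libraries. The sterol arm stood at -0.29, 0.71 and -0.0021 in knockout oil/acetone libraries, -0.12 and 0.12 in knockout water libraries, -0.45, -0.29 and 0.30 in control oil/acetone libraries and -0.27 and 0.26 in control water libraries. In every pair of groups its libraries overlapped. The fatty acid arm stood at -0.33, 0.26 and 0.07 in knockout oil/acetone libraries, 0.12 and 0.22 in knockout water libraries, -0.21, -0.47 and -0.07 in control oil/acetone libraries and 0.39 and 0.25 in control water libraries. In control skin the 3 oil/acetone libraries were all below both water libraries in the fatty acid arm, and in knockout skin they overlapped.

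The sterol arm minus the fatty acid arm was 0.03, 0.45 and -0.08 in knockout oil/acetone libraries, against -0.25 and -0.10 in knockout water libraries. It was -0.24, 0.18 and 0.36 in control oil/acetone libraries, against -0.67 and 0.01 in control water libraries. The group means were 0.14 ± 0.28 (SD, n = 3) in knockout oil/acetone, -0.17 ± 0.11 (SD, n = 2) in knockout water, 0.10 ± 0.31 (SD, n = 3) in control oil/acetone and -0.33 ± 0.48 (SD, n = 2) in control water. The mean was higher under oil/acetone than under water in both genotypes, with overlap between the libraries in control skin and none in knockout skin, where -0.08 and -0.10 were the nearest values. No test was made of these medians, since the genes were chosen.

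**Figure D4:**
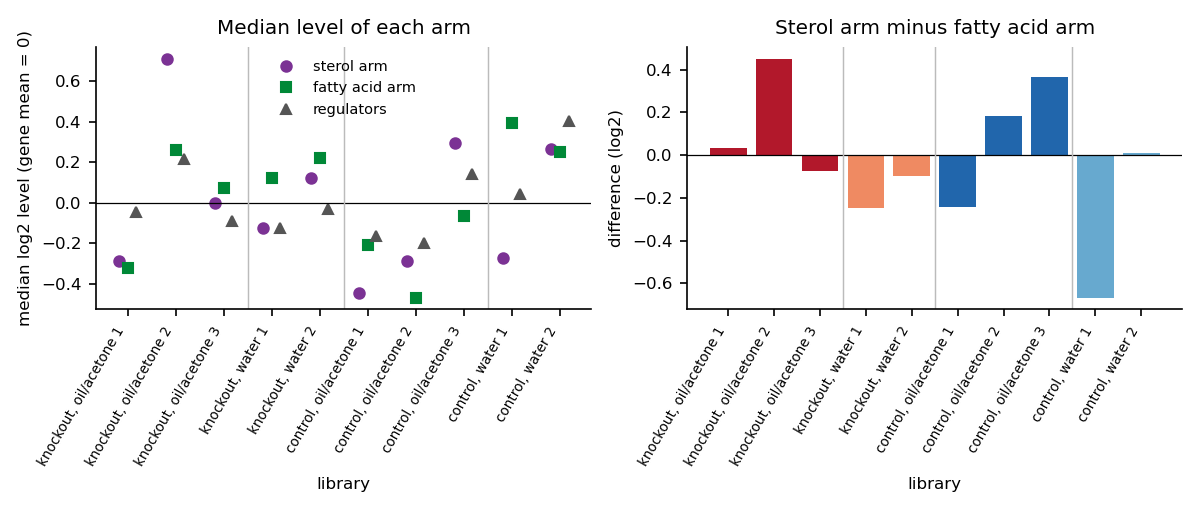
Left, the median level of the sterol arm (circles), the fatty acid arm (squares) and the regulators (triangles) in each library, in log2 units around each gene's mean; right, the sterol arm minus the fatty acid arm in the same libraries. In control skin the fatty acid arm is at -0.07 or lower in the 3 oil/acetone libraries and at 0.25 or higher in the 2 water libraries.

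Of 74 further genes of sterol synthesis, SREBP processing, sterol traffic and fatty acid metabolism, 72 were tested. In knockout skin under oil/acetone against water, limma called 4 of them higher and 5 lower, 9 of 72 in all beside the 13.4% of all genes given above. The fatty acid elongase Elovl3, known in mouse from sebaceous glands and hair follicles, had 136, 1015 and 366 normalised counts under oil/acetone, against 72.5 and 69.8 under water, and rose by 2.36 ± 0.68 (SE, log2, limma adjusted p = 0.0456). Fntb, a farnesyltransferase subunit, rose by 1.20 (adjusted p = 0.0304), Pgd, a dehydrogenase of the pentose phosphate pathway that yields NADPH, by 0.90 (adjusted p = 0.0371) and Npc2, which carries cholesterol in lysosomes, by 0.61 (adjusted p = 0.0478). The genes that fell belong to varied steps. Sec24a, a COPII coat gene of the route by which SREBP precursors leave the endoplasmic reticulum, had 1036, 628 and 627 under oil/acetone, against 2532 and 2289 under water, and fell by 1.70 ± 0.33 (SE, log2, limma adjusted p = 0.0166). Lower too were Acsl3, an acyl-CoA synthetase (-1.11, adjusted p = 0.0198), Rnf139, a ubiquitin ligase of the endoplasmic reticulum (-0.74, adjusted p = 0.0348), and Ggps1, which makes geranylgeranyl diphosphate (-0.68, adjusted p = 0.0325).

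In the other comparisons limma called none of the 72. In control skin under oil/acetone against water, 10 had a lower and none a higher value at an unadjusted p under 0.05, beside 7.94% of all genes lower, and the lowest p was that of Scd2, a stearoyl-CoA desaturase, with 1289, 952 and 1117 normalised counts under oil/acetone, against 2787 and 2727 under water (-1.31 ± 0.26, SE, log2, limma adjusted p = 0.108). Its groups did not overlap. At the same limit, knockout against control under oil/acetone gave 10 higher and 6 lower, beside 5.47% and 6.49% of all genes. Under water it gave 0 higher and 2 lower, beside 1.76% and 3.23% of all genes. The interaction gave 7 positive and 1 negative, beside 6.15% and 5.73% of all genes.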

How the data were processed

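RNA sequencing libraries of mouse back skin keratinocytes (10 in all) were deposited as a normalised signal for each gene, with a separate file for every library. The authors used Trimmomatic 0.38, featureCounts 2.0.0 and DESeq2 1.26.0 with GRCm38 (mm10), per the submitters' processing notes. Which aligner, annotation release and strand setting were used is not given in the sources used here. In every library 100% of deposited signal values were whole multiples of 1 step (tolerance 0.1 read), which gave back 15914663 to 21812292 reads per library; values drawn from few reads carry larger counting error. All 17983 gene IDs matched GENCODE M21 (GRCm38).

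The 15987 genes listed in all 10 files were rescaled by median-of-ratios factors (called normalised counts in the text), and 15958 with at least 10 in at least 2 libraries entered tests on the scale log2(value + 1) in limma 3.58.1 (R 4.3.3; lmFit, contrasts.fit, eBayes with trend, 1 model of 4 group means, two-sided, Benjamini-Hochberg adjustment over all genes tested, threshold 0.05). Fold changes on this scale understate those of low genes. The restriction to genes listed in all files was added after the files were seen. edgeR 4.0.16 (quasi-likelihood) and DESeq2 1.42.0 were run on recovered reads as alternatives, beside other scalings, pseudocounts, filters, fits and each library left out. The limma fit was tested on simulated data.

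Genes named are those called in a comparison and the 2 lowest p-values of each arm and of the regulators. Other members are given as description. Other pathway genes are named where called or lowest in p, and elongases also as description. The members and lists were chosen with earlier results of these data known. A few genes of these pathways, 1 of them counted among the called pathway genes, are not reported here.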

Additional observations from a re-analysis of the deposited data

How the results depend on the processing

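Across 21 alternatives, 298 counts of calls stayed within 1.5 times the main count and 11 did not. Every main count was 0, except 1 for the sterol arm in knockout skin, so most of the 298 are counts that stayed at 0. The count of fatty acid genes called in knockout skin under oil/acetone against water was 0 with limma and 1 with DESeq2, with the 2 groups alone in the fit and with genes listed in both groups; leaving out each library gave 0 to 1. The sterol count in the same comparison was 1 and ranged from 0 to 1 with each library left out, and the fatty acid count in control skin was 0 and ranged from 0 to 3. For the genes with the lowest p in each comparison (30 values before the alternatives), 602 values kept direction and side of the threshold, 7 passed it, 5 lost it and 4 turned. Only Ebp in knockout skin was called in the main fit, so for the others keeping side meant staying uncalled. The turned values were Srebf2 in knockout skin, -0.08 on the log2 scale, at 0.046 with equal totals and -0.19 to 0.029 with each library left out; Insig1 in knockout skin, -0.034 to 0.57; and Insig1 in knockout against control under oil/acetone, -0.053 to 0.67. Of all 33 genes, 15 to 20 in each of the 5 comparisons turned sign with some library left out. Why these values moved was not tested.

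Over all genes, oil/acetone against water in control skin gave 10 calls with limma, 352 with DESeq2, 58 with the replicate block and 470 without control oil/acetone library 1. In knockout skin it gave 2142 calls with limma, 3610 with DESeq2, 2766 with the replicate block, 3892 with the knockout groups alone, and 424, 239, 9 and 35 without knockout oil/acetone libraries 2 and 3 and knockout water libraries 1 and 2. Same-numbered libraries of different groups had correlations of -0.105 to 0.451, over 0.1 in 6 of 13 pairs, so not every pair deviated together and the numbers were not used to pair samples; with the replicate block 1 of the 33 genes was called in knockout skin. Scaling to equal totals moved the median of all genes to 0.13 in knockout skin (0.01 otherwise), 0.11 in knockout against control under oil/acetone (0.02 otherwise) and 0.19 in the interaction (0.03 otherwise). Fits of the compared groups alone do not exist for the interaction.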
